A study of Homo sapiens with 8 samples.

Results

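The genes described here make MHC class I molecules and load them with peptide, and they were chosen by that function and not by a measured value. They are the heavy chains HLA-B, HLA-C, HLA-E and HLA-F, the light chain B2M, the peptide transporter subunits TAP1 and TAP2, the loading chaperone TAPBP (tapasin) and the immunoproteasome subunit PSMB9, or 9 of the 25369 gene symbols measured. MCF10A, an epithelial line from human breast that does not form tumours, was kept inside hydrogels for 7 days before RNA-seq, so every group shares the cell line and the time. Soft IPN and stiff IPN are interpenetrating networks of alginate and reconstituted basement membrane (rBM), and calcium crosslinks the alginate in the stiff ones. Soft col:rBM is a mixture of collagen-1 and rBM, while stiff col is a collagen-1 gel whose label names no rBM. The text of the paper does not state whether stiff col held rBM or how much collagen-1 each gel held. Per the paper, the wells that held the gels had a coat of gelled rBM. Each of the 4 gels had 2 libraries, numbered 1 and 2, and the paper describes its replicates as independent trials. That the same number marks the same trial in every gel is assumed here.

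Almost every nucleated cell carries MHC class I on its surface. Proteasomes cut cytosolic proteins into peptides, the TAP transporter moves these into the endoplasmic reticulum, and tapasin holds empty heavy chains bound to B2M beside the transporter until a peptide fits. Interferons are known to raise the transcription of most of these genes, in epithelial cells as in others, and cytotoxic T cells and natural killer cells read the finished complexes.

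Values are normalized counts, that is, counts per gene divided by 1 factor per library and rounded. Sequencing was paired-end, and whether a count stands for a read or for a read pair is not given. Before that division a library held between 13059651 and 18583116 counts on genes, and 3 of these, taken as the limit of detection, were worth 2.4 to 3.7 normalized counts. This limit covers counting error only. All 9 genes were above it in all 8 libraries, and all 9 were among the 13369 genes with at least 10 normalized counts in at least 2 libraries, which were tested. Differences between gels are given as log2 differences of normalized count + 1 from limma, a linear model that shares variance between genes, and a gene is called when its Benjamini-Hochberg adjusted p over the genes tested is under 0.05. With 2 libraries against 2, an exact permutation test cannot give a two-sided p below 0.333, so the calls rest on that shared variance.

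Markers of basal mammary epithelium were abundant, which does not identify the cell line. All 15 markers listed for MCF10A and basal mammary cells were tested genes, and their summed level lay between 220947 and 340834 normalized counts. Class I genes are also abundant in immune cells, so 12 leukocyte markers were examined. PTPRC, MS4A1, TYROBP and AIF1 were at 0 in every library, 7 of the 12 never exceeded 3 normalized counts, and only CD68, CD14 and LYZ were tested genes. CD68, a lysosomal protein also made outside the immune system, was the most abundant at a mean of 2446.6. Of the luminal markers KRT8 led, with list sums of 3348 to 6397. Fibroblast markers summed to 775 to 1468 with DCN leading and COL1A2 and THY1 at 0, and endothelial markers summed to 39 to 270 with KDR leading and CLDN5 at 0. MHC class II genes, which professional antigen presenting cells express, were nearly absent: HLA-DRB1, HLA-DPB1, HLA-DQA1 and HLA-DQB1 were at 0 in every library, and HLA-DMA, at 5 to 20 normalized counts, was the 1 tested gene of 10. In the 4 comparisons between gels limma called 0 class II genes, with 0 at an unadjusted p under 0.05, with and without the trial as a block.

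In the genome, 8 of the 9 genes lie in the MHC on chromosome 6 and B2M lies on chromosome 15. In hg19 coordinates (GENCODE 44 gene models) the heavy chain genes are HLA-F at chr6:29691211-29695073 and HLA-E at chr6:30457286-30461971 on the plus strand, and HLA-C at chr6:31236526-31239869 and HLA-B at chr6:31321652-31324956 on the minus strand. TAP2 (chr6:32793192-32806516, minus), TAP1 (chr6:32812986-32821481, minus) and PSMB9 (chr6:32821969-32827628, plus) are neighbours, and 487 bases separate TAP1 from PSMB9. PSMB8, another immunoproteasome subunit, sits between TAP2 and TAP1. TAPBP lies at chr6:33267471-33281855 on the minus strand and B2M at chr15:45003715-45010343 on the plus strand.

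Several of these genes share sequence with others, which leaves their counts uncertain. The library kit does not mark the strand of a read and the strand setting of the counting is not given in the sources used here, so reads of an overlapping gene on the opposite strand cannot be told apart. Such genes cover 42.0% of the exon bases of HLA-F, 40.5% of TAPBP, 23.7% of HLA-B and 21.5% of TAP1. Another gene model on the same strand covers 35.8% of the exon bases of TAP2. Of all 50-base stretches of TAP2, 35.3% occur in another gene, against 6.98% for TAPBP, 6.76% for HLA-C, 6.16% for HLA-E, 2.56% for HLA-B, 1.89% for HLA-F and 1.18% for TAP1. B2M and PSMB9 shared no such stretch and no exon base with another gene.

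Promoters of 8 of the 9 genes were found among the RefSeq windows (GRCh38.p14), and 6 windows are printed, because HLA-B, HLA-C, HLA-F and TAP1 varied alike over the libraries, B2M shares motifs with them, and TAP2 varied in a way of its own. Each is the 250 bases before a transcription start, written 5′ to 3′ on the gene's strand. Capitals mark matches on either strand to the interferon-stimulated response element (ISRE, GAAA, then 2 bases of any kind, then GAAA), to the NF-kB motif and to the X2 box (TGACGC), an element of MHC promoters. The windows are HLA-B chr6:31357180-31357429 (minus strand), HLA-C chr6:31272093-31272342 (minus), HLA-F chr6:29723184-29723433 (plus), B2M chr15:44711267-44711516 (plus), TAP1 chr6:32853705-32853954 (minus, 1 of 2 windows of this gene) and TAP2 chr6:32838740-32838989 (minus).
HLA-B: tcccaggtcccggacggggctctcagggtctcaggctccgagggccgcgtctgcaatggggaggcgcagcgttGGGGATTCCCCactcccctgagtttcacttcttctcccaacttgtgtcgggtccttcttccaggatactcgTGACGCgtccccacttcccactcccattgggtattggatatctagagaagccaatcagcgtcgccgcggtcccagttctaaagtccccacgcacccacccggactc
HLA-C: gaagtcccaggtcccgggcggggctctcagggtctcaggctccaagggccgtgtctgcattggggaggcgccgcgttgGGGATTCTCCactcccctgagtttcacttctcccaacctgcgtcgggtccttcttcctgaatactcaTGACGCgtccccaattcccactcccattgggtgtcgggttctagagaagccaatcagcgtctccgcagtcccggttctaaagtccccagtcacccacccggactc
HLA-F: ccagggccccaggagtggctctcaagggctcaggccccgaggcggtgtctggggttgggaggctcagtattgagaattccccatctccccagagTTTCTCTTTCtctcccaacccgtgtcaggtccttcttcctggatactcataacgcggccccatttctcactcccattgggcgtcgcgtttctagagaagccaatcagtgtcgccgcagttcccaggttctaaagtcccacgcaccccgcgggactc
B2M: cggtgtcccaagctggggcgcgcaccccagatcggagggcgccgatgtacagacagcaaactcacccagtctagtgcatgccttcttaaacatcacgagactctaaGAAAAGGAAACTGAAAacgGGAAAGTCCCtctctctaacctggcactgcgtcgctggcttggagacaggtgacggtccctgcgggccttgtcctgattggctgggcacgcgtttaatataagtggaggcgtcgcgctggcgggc
TAP1: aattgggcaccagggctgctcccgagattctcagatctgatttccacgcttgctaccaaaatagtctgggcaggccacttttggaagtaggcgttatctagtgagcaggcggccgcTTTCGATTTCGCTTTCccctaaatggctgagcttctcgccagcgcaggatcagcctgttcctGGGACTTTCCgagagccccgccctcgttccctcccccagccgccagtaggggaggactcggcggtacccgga
TAP2: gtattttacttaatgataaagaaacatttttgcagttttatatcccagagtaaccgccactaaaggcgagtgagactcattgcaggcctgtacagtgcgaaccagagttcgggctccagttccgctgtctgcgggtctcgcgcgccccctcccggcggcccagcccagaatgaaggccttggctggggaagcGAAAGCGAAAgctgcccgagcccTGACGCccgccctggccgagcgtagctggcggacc

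An ISRE match was found for 5 of the 8 genes with a window (HLA-F, B2M, TAP1, TAP2 and TAPBP), while 3.02% of all 35114 windows held one. In B2M, TAP1 and TAPBP there were 2 ISRE matches that overlapped each other. The NF-kB motif was matched in HLA-B, HLA-C, B2M, TAP1 and TAPBP (9.96% of all windows), and the X2 box in HLA-B, HLA-C and TAP2 (7.67%). The interferon-gamma element GAS (TTCNNNGAA), found in 6.57% of all windows, was matched only in the other window of TAP1. CCAAT, on either strand, was present in 6 of the 8 genes and in 32.0% of all windows. Matches of different motifs shared no base. The printed windows of HLA-B and HLA-C were identical at 226 of 254 aligned positions (89.0%), those of HLA-B and HLA-F at 204 of 254 (80.3%) and those of HLA-C and HLA-F at 202 of 257 (78.6%). TAP1 and PSMB9 are transcribed away from each other, and their windows share 13 bases. A match describes these letters only and does not show that a factor binds there. The lack of a match does not show that a promoter lacks the element, since variants of these letters were not searched.

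Per kilobase of exon, B2M was the most abundant of the 9, with a mean level of 11100 normalized counts per kb over the 8 libraries. HLA-C followed at 2190, HLA-E at 1630 and HLA-B at 950 normalized counts per kb. TAPBP was at 564, TAP1 at 248, HLA-F at 212 and TAP2 at 208 on the same scale. PSMB9 was far lower, at 17.8 normalized counts per kb, whereas the other immunoproteasome subunits PSMB8 and PSMB10 were at 513 and 237. PSMB6, the standard proteasome subunit that PSMB9 replaces in immunoproteasomes, was at 1870 normalized counts per kb. The plot of level per length shows these means with the lowest and highest library, and the range of PSMB9 (9.83 to 26.5) stayed below that of every other gene plotted.

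**Figure D1:**
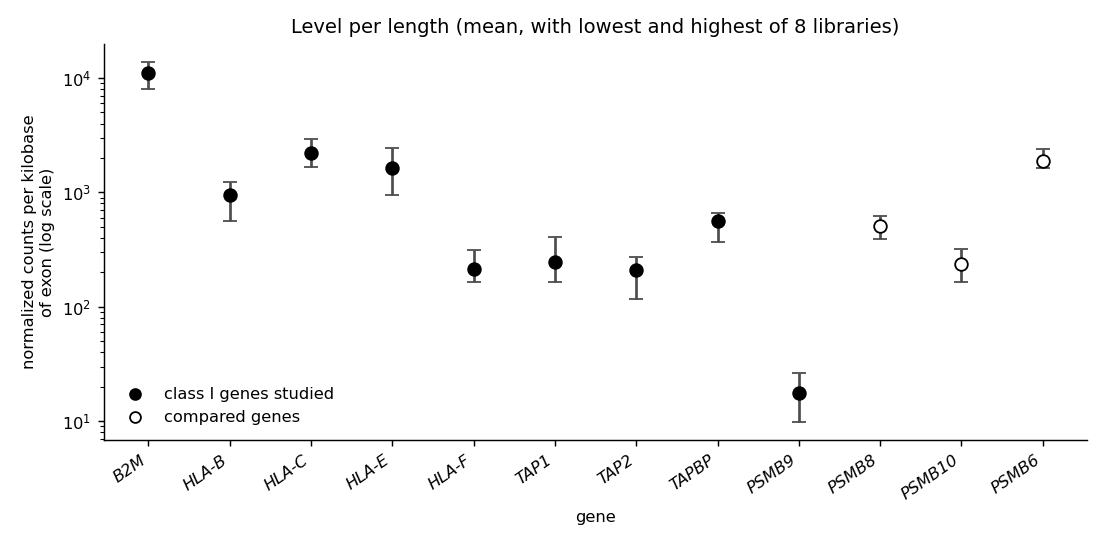
Level of the class I genes and of 3 compared genes in normalized counts per kilobase of exon, on a log axis; points are means over 8 libraries and bars run from the lowest to the highest library. B2M, at 11100, was the highest and PSMB9, at 17.8, the lowest.

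HLA-B, a classical heavy chain that presents peptides to cytotoxic T cells, had 1700 and 1586 normalized counts in soft IPN (replicates 1 and 2), 1700 and 1867 in stiff IPN, 1275 and 863 in soft col:rBM and 1634 and 1050 in stiff col. Both collagen gels had their lower library in replicate 2, and both soft col:rBM libraries lay under all 4 IPN libraries. In bulk RNA, fewer cells that express a gene and less of its RNA per cell cannot be told apart. HLA-C, a classical heavy chain and a ligand of natural killer cell receptors, had 3506 and 3718 in soft IPN, 3277 and 4484 in stiff IPN, 3222 and 2544 in soft col:rBM and 3642 and 2668 in stiff col. Its order of gel means matched that of HLA-B, with stiff IPN first (3880.5 ± 853, SD, n = 2) and soft col:rBM last (2883 ± 479, n = 2), but every pair of neighbouring gels in that order overlapped, as for HLA-B.

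HLA-E, a non-classical heavy chain that displays leader peptides of other heavy chains to natural killer cells, had 6264 and 3591 normalized counts in soft IPN, 3858 and 3279 in stiff IPN, 5873 and 2757 in soft col:rBM and 5215 and 2425 in stiff col. Replicate 1 was the higher library in every gel, and the libraries of all 4 gels overlapped. The gel mean of HLA-E was highest in soft IPN (4927.5 ± 1890, n = 2) and lowest in stiff IPN (3568.5 ± 409, n = 2), the gel in which 7 of the 9 genes had their highest mean. HLA-F, a non-classical chain that can reach the surface without peptide, had 328 and 308 in soft IPN, 352 and 463 in stiff IPN, 272 and 246 in soft col:rBM and 291 and 247 in stiff col. Here the stiff IPN libraries lay above both soft IPN libraries, and these lay above both stiff col libraries, while stiff col and soft col:rBM overlapped.

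B2M, the light chain that every class I heavy chain needs, had 11007 and 8584 normalized counts in soft IPN, 12502 and 12973 in stiff IPN, 8798 and 7550 in soft col:rBM and 12721 and 9917 in stiff col. The stiff IPN libraries were above those of soft IPN and soft col:rBM, and stiff col replicate 1 lay between the pair of stiff IPN libraries. The order of gel means was stiff IPN (12737.5 ± 333, n = 2), stiff col (11319 ± 1980), soft IPN (9795.5 ± 1710) and soft col:rBM (8174 ± 882), and each neighbouring pair overlapped.

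TAP1, which with TAP2 forms the peptide transporter, had 730 and 697 normalized counts in soft IPN, 682 and 1095 in stiff IPN, 459 and 444 in soft col:rBM and 682 and 530 in stiff col. Both soft col:rBM libraries were below every other library, and stiff IPN replicate 2 was well above its partner, which equalled stiff col replicate 1. TAP1 was at 713.5 ± 23.3 (SD, n = 2) in soft IPN and at 451.5 ± 10.6 (n = 2) in soft col:rBM, and the neighbours soft IPN and stiff col, and stiff col and soft col:rBM, did not overlap. TAP2 had 996 and 1529 in soft IPN, 1202 and 1327 in stiff IPN, 663 and 1504 in soft col:rBM and 749 and 1416 in stiff col. In TAP2 the order within gels was the reverse of that in HLA-E, with replicate 2 higher in all 4, and its gel means spanned only 1082.5 to 1264.5, with every gel overlapping every other.

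TAPBP had 2206 and 2071 normalized counts in soft IPN, 1969 and 2233 in stiff IPN, 2028 and 1271 in soft col:rBM and 2264 and 1532 in stiff col. Its soft IPN and stiff IPN libraries overlapped, as did each other pair of neighbours in the order of its gel means, and the lowest libraries were replicate 2 of both collagen gels. PSMB9, the inducible subunit that changes which peptides the proteasome cuts, had 13 and 19 in soft IPN, 24 and 27 in stiff IPN, 17 and 10 in soft col:rBM and 21 and 14 in stiff col. The stiff IPN libraries of PSMB9 were above all others, at levels where a few counts separate the other 3 gels.

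Across the 9 genes, stiff IPN had the highest gel mean in 7 and soft col:rBM the lowest in 7, beside 33.9% and 16.7% of all genes tested. Of the 27 pairs of neighbours in these orders, 22 overlapped in their libraries (81.5%), beside 84.2% of such pairs over all genes tested. Stiff IPN replicate 2 was the highest library for 6 of the 9 genes (66.7%), against 23.4% of all genes tested, and soft col:rBM replicate 2 was the lowest for 7, against 7.43% of all genes. From the lowest to the highest library the genes varied 1.72-fold (B2M) to 2.7-fold (PSMB9). In the plot of values by gel, the spread of the replicates can be set against the distance between gels for each gene.

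**Figure D2:**
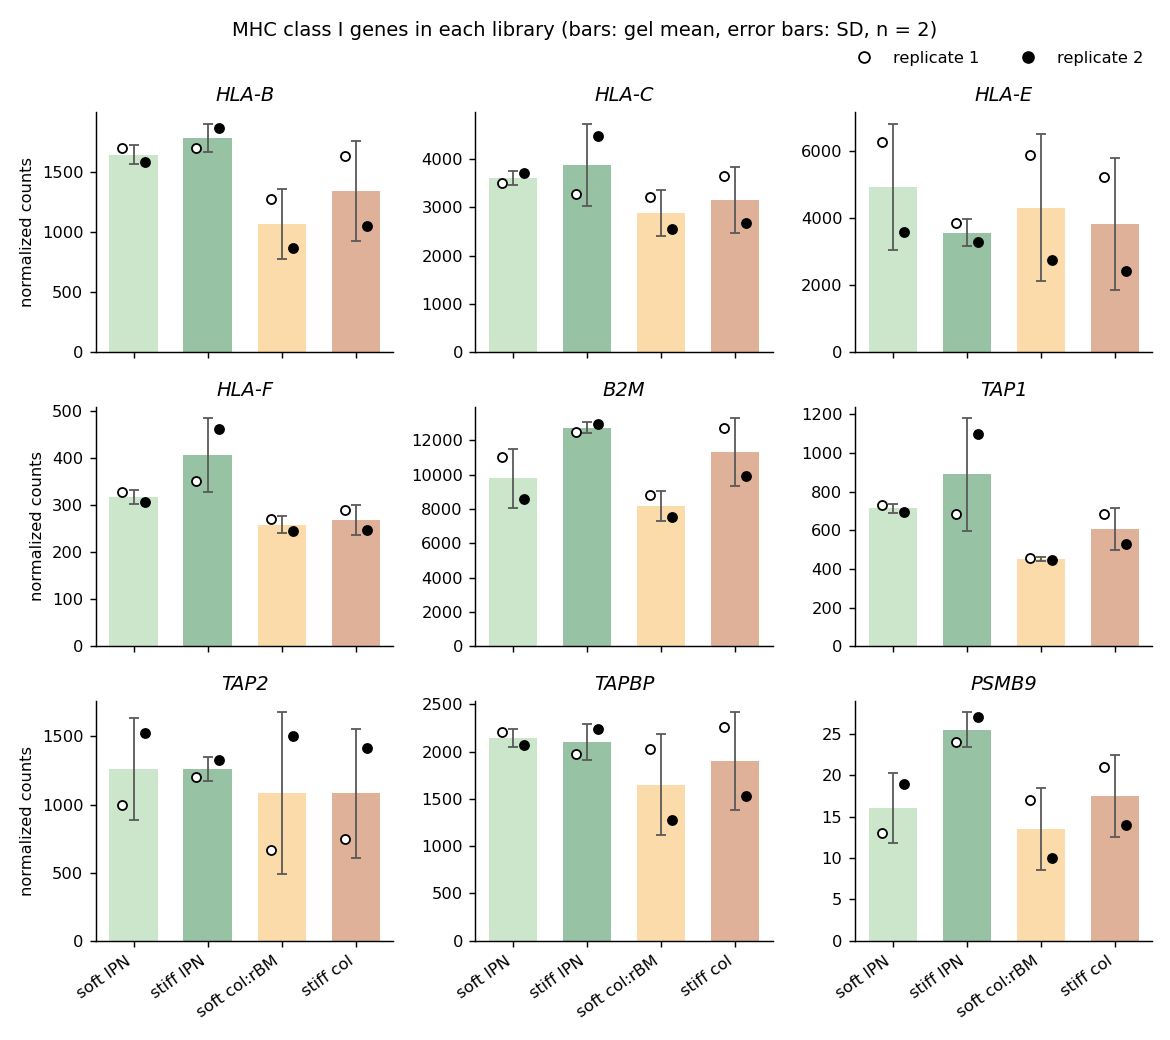
Normalized counts of the 9 class I genes in each library; bars are gel means, error bars SD (n = 2), open circles replicate 1 and filled circles replicate 2. In HLA-E replicate 1 was higher in all 4 gels and in TAP2 replicate 2 was, while both soft col:rBM libraries of TAP1 (459 and 444) were under all others.

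In limma's test of any difference over the 4 gels, 0 of the 9 genes were called, and 0 of the 13369 genes tested (0%). At an unadjusted p under 0.05 there was 1, TAP1 (adjusted p = 0.951 in limma), beside 702 (5.25%) of all genes. With the trial as a block in limma, 211 of all genes were called (1.58%) but still 0 of the 9, and the unadjusted p was under 0.05 for 4 of them (B2M, HLA-B, TAP1 and HLA-F) and for 2645 (19.8%) of all genes. The 4 comparisons that follow each share the libraries of a gel with 2 others, so that their values are not independent of each other.

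From soft IPN to stiff IPN, alginate and rBM stay, and stiffness changes together with the calcium that crosslinks the gel. The median of the class I genes was slightly above 0 and no gene was called. HLA-F, B2M and PSMB9 were higher in both stiff IPN libraries than in either soft IPN library, and HLA-E had the largest estimate in the other direction (-0.42). B2M had a log2 difference of 0.39 (SE 0.23, 95% interval -0.15 to 0.93), 0.18 in trial 1 and 0.60 in trial 2, with adjusted p = 0.6 in limma and 0.181 with the trial as a block. The difference of PSMB9 was 0.66 (interval -0.45 to 1.78) and that of HLA-F 0.34 (-0.19 to 0.88). Over the 9 genes the median log2 difference was 0.12 (7 higher, 2 lower), beside -0.01 over all genes tested. The 3 genes without overlap, all higher, compare with 20.5% of all genes higher and 21.4% lower without overlap.

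In limma, 0 of the 9 genes were called from soft to stiff IPN without the block, where 0% of all genes were, and 0 with it, where 3.82% were (1.69% higher and 2.13% lower). At an unadjusted p under 0.05 there were 0 without the block and 1, B2M, with it, beside 9.31% and 24.7% of all genes. The trials differed, with a median of 0.00 in trial 1 and 0.27 in trial 2, and 3 genes were higher and 1 lower in both, beside 31.2% and 31.7% of all genes. Leaving out stiff IPN replicate 2 gave a median of -0.04 (4 higher, 5 lower), and leaving out its partner gave 0.31 (8 higher, 1 lower).

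The step from stiff IPN to stiff col exchanges alginate, calcium and, by the labels, rBM for collagen-1 between stiff gels. All 9 estimates were below 0, that of HLA-E by so little that it rounds to 0.00. HLA-B, HLA-F and PSMB9 were lower in both stiff col libraries than in either stiff IPN library. For HLA-F the log2 difference was -0.59 (SE 0.23, 95% interval -1.12 to -0.06), -0.27 in trial 1 and -0.90 in trial 2, with adjusted p = 0.728 in limma and adjusted p = 0.17 with the trial as a block. PSMB9 had -0.54 (interval -1.66 to 0.57), TAP1 -0.52 (-1.13 to 0.08) and HLA-B -0.44 (-1.08 to 0.19). The median was -0.30 for the 9 genes and 0.00 for all genes tested, and the 3 genes without overlap stand beside 15.8% of all genes lower and 15.1% higher without overlap.

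Between stiff IPN and stiff col limma called 0 of the 9 genes, with and without the block, beside 0% of all genes without it and 2.47% with it (1% higher and 1.47% lower). HLA-F was the 1 gene at an unadjusted p under 0.05 in each fit, a level that 6.27% of all genes reached without the block and 18.9% with it. In trial 1 the median of the 9 genes was 0.00, and in trial 2 it was -0.75, with 3 genes lower and 0 higher in both trials, beside 27.3% and 28.2% of all genes. Without stiff IPN replicate 2 the median was -0.18, and without stiff col replicate 2 it was -0.12 (2 higher, 7 lower).

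From soft col:rBM to stiff col, both with collagen-1, stiffness and, by the labels, the presence of rBM in the gel mixture change together. The collagen-1 concentration may change too. B2M and TAP1 were higher in both stiff col libraries than in either soft col:rBM library, and no gene was lower in that way. B2M had a log2 difference of 0.46 (SE 0.23, 95% interval -0.08 to 1.01), 0.53 in trial 1 and 0.39 in trial 2, with adjusted p = 1 in limma. TAP1 had 0.41 (interval -0.19 to 1.02). The median of the 9 genes was 0.21 (8 higher, 1 lower, the latter HLA-E at -0.18) beside 0.00 over all genes tested, and 9.51% of all genes were higher without overlap.

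In that comparison limma called 0 of the 9 genes and 0% of all genes, with and without the trial as a block. The unadjusted p was under 0.05 for 0 genes without the block and for 1, B2M, with it, beside 1.05% and 3.72% of all genes. The direction was shared by both trials for 8 genes, 7 higher and 1 lower (30.8% and 32.7% of all genes), with medians of 0.18 and 0.25. Single libraries moved the median from 0.21 to 0.01 (without soft col:rBM replicate 2), to 0.00 (without stiff col replicate 1), to 0.44 (without soft col:rBM replicate 1) and to 0.50 (without stiff col replicate 2).

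From soft IPN to soft col:rBM, which exchanges alginate for collagen-1 between soft gels that both hold rBM, all 9 estimates were below 0, between -0.66 and -0.24. HLA-B, HLA-C, HLA-F, TAP1 and TAPBP were lower in both soft col:rBM libraries than in either soft IPN library. TAP1 had a log2 difference of -0.66 (SE 0.26, 95% interval -1.27 to -0.05), which is 0.633-fold, and its estimates of -0.67 in trial 1 and -0.65 in trial 2 were the closest of the 9 genes in this comparison. HLA-B had -0.65 (SE 0.27, interval -1.28 to -0.01), -0.41 in trial 1 and -0.88 in trial 2. In limma the adjusted p was 1 for both, and with the block it was 0.943 for TAP1 and 0.805 for HLA-B.

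The 5 genes lower without overlap in soft col:rBM compare with 10.4% of all genes lower and 10.3% higher without overlap, and the median of -0.31 with 0.00 over all genes tested. Limma called 0 of the 9 genes with and without the block, beside 0% of all genes without it and 0.0224% (3 genes) with it, of which 0.015% were higher and 0.00748% lower. TAP1 and HLA-B were the 2 genes at an unadjusted p under 0.05 in each fit, against 1.42% of all genes without the block and 4.76% with it. The medians were -0.27 in trial 1 and -0.55 in trial 2, and 8 genes were lower and 0 higher in both, beside 27.6% and 26.3% of all genes. Without soft col:rBM replicate 2 the median was -0.16 (2 higher, 7 lower) and without soft col:rBM replicate 1 it was -0.61 (1 higher, 8 lower). The plot of differences shows, for each gene and comparison, the limma estimate with its 95% interval and the value of each trial.

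**Figure D3:**
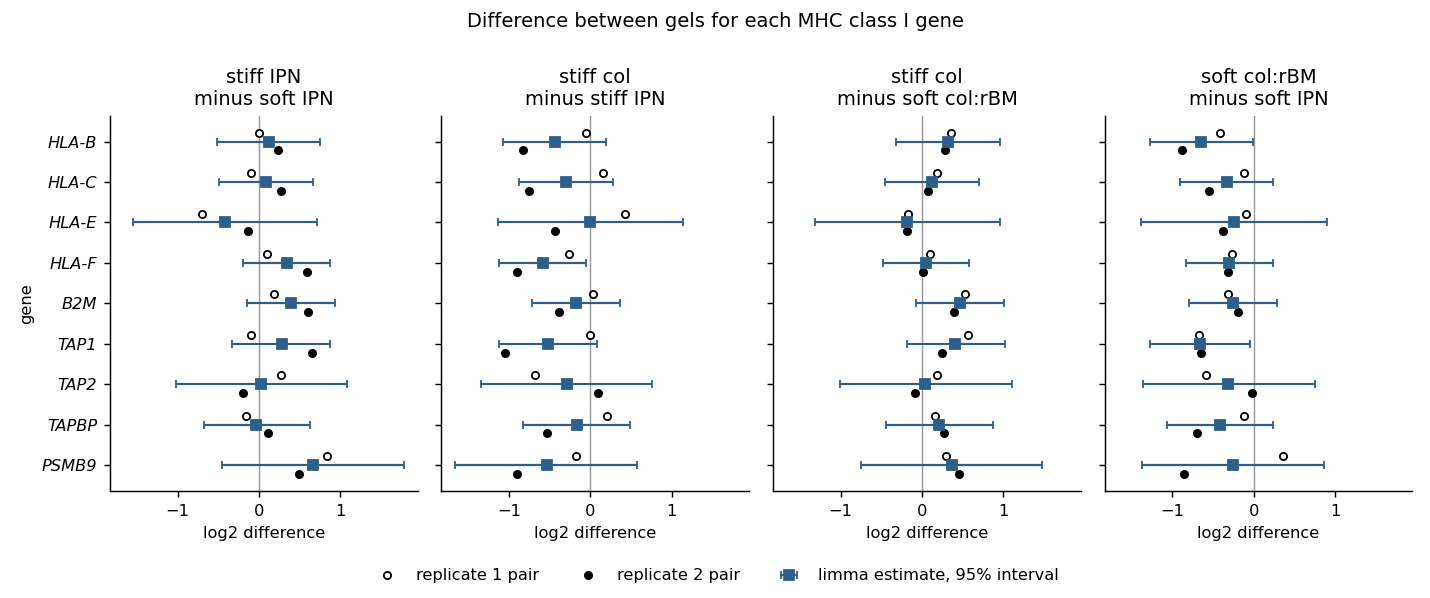
Log2 differences between gels for the 9 class I genes; squares are limma estimates with 95% intervals, open circles the difference within replicate 1 and filled circles that within replicate 2. From soft IPN to soft col:rBM all 9 estimates lie below 0, and the intervals of TAP1 and HLA-B end just under it.

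The step from soft col:rBM to stiff col was also compared with that from soft IPN to stiff IPN, as a difference of differences. By the labels the first step removes rBM from the gel mixture, and the second adds calcium. This contrast thus mixes stiffness with what the gels are made of. Its median over the 9 genes was 0.07, from -0.29 to 0.24, beside 0.01 over all genes. With single libraries left out this median ran from -0.12 to 0.26, so that its sign was not fixed. Limma called 0 of the 9 genes with and without the block, at 0% and 0.015% (2 genes) of all genes, and 0 had an unadjusted p under 0.05 in either fit, beside 2.08% and 9.88% of all genes. For B2M the estimate was 0.07 with a 95% interval of -0.70 to 0.84, and for TAP1 it was 0.14 (-0.72 to 0.99), so differences of moderate size in either direction lie inside the intervals.

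Between the trials, that is, between replicates 1 and 2 of each gel, 2 of the 9 genes were called. HLA-E was lower in replicate 2 than in replicate 1 in all 4 gels, by log2 differences of -0.80 in soft IPN, -0.23 in stiff IPN, -1.09 in soft col:rBM and -1.10 in stiff col. TAP2 was higher in replicate 2 in all 4, by 0.62, 0.14, 1.18 and 0.92 in the same order. With the gel in the model, HLA-E fell by 0.81 on the log2 scale (SE 0.15, 0.571-fold, adjusted p = 0.00964 in limma) and TAP2 rose by 0.71 (SE 0.16, 1.64-fold, adjusted p = 0.0171 in limma) from replicate 1 to replicate 2 within gels. An exact sign-flip test over the 4 gels gave a two-sided p of 0.125 for each, which is the smallest that 4 pairs allow. These 2 calls compare with 27.1% of all genes called between the trials in limma, 12.7% higher and 14.4% lower, and 41.3% had an unadjusted p under 0.05. A call between trials was thus common, and 21.4% of all genes were higher and 23.1% lower in replicate 2 in all 4 gels.

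The direction of both genes was kept when any 1 library was left out, with log2 differences of -0.71 or lower for HLA-E and of 0.56 or higher for TAP2, while the number of calls depended on the library. Without soft IPN replicate 1 or 2, 0 of the 9 genes were called in limma (adjusted p of HLA-E 0.055 and 0.0545, of TAP2 0.0732 and 0.0733), and 1596 and 1638 of all genes were. Without stiff IPN replicate 1 or 2, 5 genes were called (HLA-B, HLA-E, B2M, TAP2 and TAPBP), with 5845 and 5811 of all genes. When a library of soft col:rBM was left out, 1221 (replicate 1) and 1214 (replicate 2) of all genes were called, and 1208 and 1222 when one of stiff col was. In these fits HLA-E alone of the 9 genes was called. A gel left with 1 library adds nothing to the difference between trials. Leaving out either library of a gel thus gives nearly the same fit, and the 2 fits are not separate checks.

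The other 7 genes were not called between the trials. HLA-B (-0.10 and 0.14 in the soft and stiff IPN, -0.56 and -0.64 in soft col:rBM and stiff col) and TAPBP (-0.09, 0.18, -0.67 and -0.56) were lower in replicate 2 in both collagen gels and close to even in the IPNs. TAP1 was higher in replicate 2 by 0.68 in stiff IPN and lower in the other 3 gels. As the plot of replicate differences shows, stiff IPN gave the highest of the 4 values in 7 of the 9 genes.

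The summed leukocyte markers, of which CD68 made most, moved in the direction of HLA-E between trials, at 4575 and 2218 normalized counts in soft IPN, 1649 and 537 in stiff IPN, 5186 and 1455 in soft col:rBM and 4611 and 1110 in stiff col. Replicate 2 was the lower library in every gel. Of the 3 leukocyte markers tested, CD68 and CD14 fell from replicate 1 to replicate 2 (log2 -1.74 and -1.17, adjusted p = 0.00178 and 0.00466 in limma), each lower in replicate 2 in all 4 gels, and LYZ was not called. Both calls were kept when any 1 library was left out. Other marker lists also differed between the trials. The endothelial sum was 263 and 73 in soft IPN, 74 and 39 in stiff IPN, 270 and 44 in soft col:rBM and 173 and 55 in stiff col, most of it KDR, and CLDN5 was at 0. Of the 15 MCF10A and basal markers limma called 7 higher and 4 lower in replicate 2, beside 12.7% and 14.4% of all genes, and between 7 and 12 when a library was left out.

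**Figure D4:**
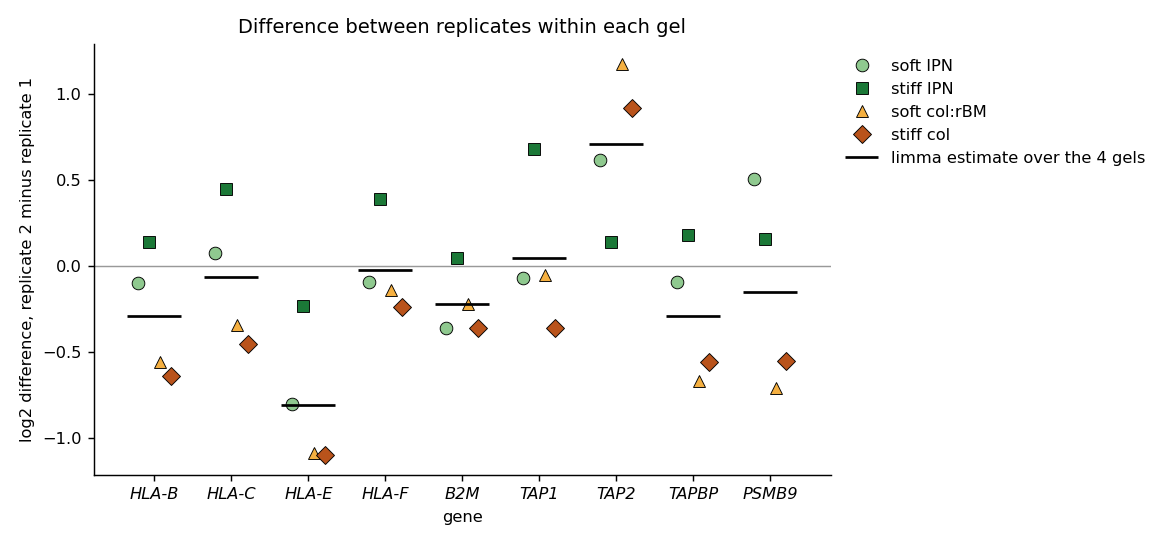
Log2 difference of replicate 2 minus replicate 1 within each gel for the 9 class I genes; symbols are gels and black lines the limma estimate over the 4 gels. HLA-E lies below 0 and TAP2 above 0 in all 4 gels.

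Levels of the genes over the 8 libraries were compared by correlation of centred log2 values, as a description, since the libraries share trials and gels. Each gene was set against the mean of the other 8. Pearson's r over 8 libraries was 0.97 for HLA-B, 0.93 for HLA-C, 0.89 for HLA-F and for TAP1, 0.85 for TAPBP, 0.76 for PSMB9 and 0.74 for B2M. HLA-E (0.16) and TAP2 (-0.32) stood apart from these 7, and they are the genes that differed between the trials. Both TAP subunits are needed for transport and lie close together in the genome, and their values in this measure were far apart. The mean profile of the 9 genes was 0.11 and 0.08 in soft IPN, 0.15 and 0.37 in stiff IPN, -0.13 and -0.42 in soft col:rBM and 0.11 and -0.26 in stiff col.

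Among 10850 other genes with a mean of at least 50 normalized counts, the 10 most alike this mean profile over the 8 libraries were MRPL41 (r = 0.965), DTX2 (0.954), MIF4GD (0.949), PDZK1IP1 (0.943), FAAH2 (0.928), ELF3 (0.922), CHCHD1 (0.919), SMDT1 (0.918), TMC6 (0.917) and COX14 (0.916). MRPL41, a protein of the mitochondrial ribosome, had 623 and 609 normalized counts in soft IPN, 603 and 769 in stiff IPN, 574 and 472 in soft col:rBM and 650 and 502 in stiff col. ELF3, an epithelial transcription factor, varied far more, with 240 and 64, 544 and 712, 53 and 8, and 71 and 22 in the same order. Without stiff IPN replicate 2 the 10 correlations lay between 0.872 (COX14) and 0.956 (MRPL41). These genes were picked as the most alike of 10850, so the values of r describe them and test nothing.

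The pathway holds further genes, of which 17 were in the table and 15 were tested. From soft to stiff IPN their median log2 difference was -0.05, from stiff IPN to stiff col -0.06, from soft col:rBM to stiff col 0.15 and from soft IPN to soft col:rBM -0.22. Leaving out single libraries gave ranges of -0.16 to 0.06, -0.20 to 0.02, 0.12 to 0.25 and -0.32 to -0.22, so that in the first 2 comparisons the sign depended on 1 library. Limma called 0 of the 15 in each of these, with and without the block, and the unadjusted p was under 0.05 for 0, 1, 0 and 1 genes without it and for 2, 3, 1 and 2 with it. Over all genes tested the shares at that level were 9.31%, 6.27%, 1.05% and 1.42% without the block and 24.7%, 18.9%, 3.72% and 4.76% with it. PSMB8 had 665 and 638 normalized counts in soft IPN, 680 and 703 in stiff IPN, 448 and 437 in soft col:rBM and 526 and 513 in stiff col. The replicates of PSMB8 lay close together, and no neighbouring gels in its order overlapped. PSMB8 was lower in soft col:rBM than in soft IPN by a log2 difference of -0.56 (SE 0.17, adjusted p = 1 in limma and 0.625 with the block), near the -0.66 of TAP1, its neighbour in the genome.

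PSME2, a subunit of the proteasome activator that interferon induces, had 789 and 1056 normalized counts in soft IPN, 1190 and 1489 in stiff IPN, 657 and 942 in soft col:rBM and 773 and 1134 in stiff col. Both stiff IPN libraries were above all others, with a log2 difference from soft IPN of 0.54 (adjusted p = 0.571 in limma, 0.0636 with the block). PSMB10 had lower values in stiff col than it had in stiff IPN in both trials (-0.59, adjusted p = 0.799 in limma, 0.123 with the block). ERAP2, a trimming peptidase of the endoplasmic reticulum, had 50 and 63 in soft IPN, 73 and 127 in stiff IPN, 35 and 66 in soft col:rBM and 44 and 100 in stiff col. Between trials limma called 3 of the 15 higher and 1 lower in replicate 2, beside 12.7% and 14.4% of all genes. PSME2, ERAP2 and SPPL2A rose from replicate 1 to replicate 2 (adjusted p = 0.0134, 0.0264 and 0.012 in limma), each higher in replicate 2 in all 4 gels. Of the 15, limma called 0 between trials when any library of soft col:rBM or stiff col was left out, 2 (ERAP2 and SPPL2A) without one of soft IPN and 7 without one of stiff IPN.

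The chaperones CALR, CANX and PDIA3 of the endoplasmic reticulum were abundant, at means of 10740.2, 13796.9 and 6435 normalized counts, and were not called between gels. The same holds for PSME1 (1362 to 1985 normalized counts), ERAP1 (252 to 407), UGGT1 (1302 to 1996), SPPL2A (462 to 796) and TAPBPL (42 to 81). HLA-H, a pseudogene with close copies among the heavy chains, had 23 to 42 normalized counts and HLA-L 5 to 13. HLA-G, the heavy chain of the placenta, was at or under 2 and HLA-J at or under 9, and neither was tested.

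Regulators of class I transcription were examined as a list of 23 genes, all tested. Their median log2 differences were 0.08 from soft to stiff IPN, 0.06 from stiff IPN to stiff col, 0.13 from soft col:rBM to stiff col and -0.04 from soft IPN to soft col:rBM, and limma called 0 in each, with and without the block. With single libraries left out these medians ran from -0.03 to 0.18, from -0.04 to 0.08, from 0.00 to 0.13 and from -0.05 to 0.07, so that the sign was not fixed. At an unadjusted p under 0.05 there were 1, 2, 0 and 0 without the block and 5, 6, 0 and 0 with it, and in the first 2 comparisons all genes had shares of 9.31% and 6.27% without it and of 24.7% and 18.9% with it. NLRC5, the transactivator that acts on class I promoters, had 23 and 33 normalized counts in soft IPN, 57 and 138 in stiff IPN, 5 and 29 in soft col:rBM and 10 and 51 in stiff col. Its stiff IPN libraries were above all others, at a log2 difference from soft IPN of 1.65 (SE 0.97, adjusted p = 0.596 in limma, 0.094 with the block).

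IRF1, a transcription factor that interferon-gamma induces, had 183 and 204 normalized counts in soft IPN, 247 and 479 in stiff IPN, 124 and 180 in soft col:rBM and 152 and 217 in stiff col. RFX5, which binds the X box of MHC promoters, had 440 and 712, 872 and 1087, 380 and 783, and 503 and 850 in the same order. Both had their stiff IPN libraries above all others, with log2 differences from soft IPN of 0.83 and 0.80 (adjusted p = 0.542 and 0.571 in limma, 0.0786 and 0.0552 with the block). NLRC5, IRF1 and RFX5 rose between the trials (log2 1.58, 0.54 and 0.70, adjusted p = 0.0149, 0.0399 and 0.00909 in limma), and 5 of the 23 regulators were called higher and 3 lower in replicate 2, beside 12.7% and 14.4% of all genes. These calls depended on the libraries used. RFX5 alone was called without a library of soft col:rBM, RFX5 and 1 more gene without one of stiff col, NLRC5 and 2 others without one of soft IPN, and 10 genes, with NLRC5, IRF1 and RFX5 among them, without one of stiff IPN.

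Interferon-stimulated genes outside the pathway had larger median differences than the class I genes where stiff IPN was compared with soft IPN and with stiff col. Of 35 listed, 32 were tested, with a median log2 difference of 1.19 (30 higher, 2 lower) from soft to stiff IPN and of -1.14 (3 higher, 29 lower) from stiff IPN to stiff col, beside 0.12 and -0.30 for the 9 class I genes. Limma without the block called 0 in either, with 15 and 14 at an unadjusted p under 0.05 (9.31% and 6.27% of all genes), and once the trial was in the model it called 11 higher in stiff IPN than in soft IPN and 9 that were lower in stiff col, beside 1.69% of all genes higher and 1.47% lower in those fits. The median was 0.27 from soft col:rBM to stiff col and -0.21 from soft IPN to soft col:rBM, with 0 called by limma in each fit, 0 and 1 at an unadjusted p under 0.05 without the block and 1 and 3 with it (1.05% and 1.42%, then 3.72% and 4.76% of all genes). Without stiff IPN replicate 2 the medians over the genes then tested were 0.70 and -0.71 in place of 1.19 and -1.14. Over all libraries left out in turn they ran from 0.70 to 1.62 and from -1.44 to -0.71, and in the 2 other comparisons from 0.14 to 0.28 and from -0.24 to -0.02, the values nearest 0 without soft col:rBM replicate 1.

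Markers of cell types were called in the same blocked fits. From soft to stiff IPN limma called 2 of the 15 basal markers higher and 2 lower, 1 of 4 luminal markers higher, and CD68, which fell by 2.24 on the log2 scale (adjusted p = 0.0126), beside 1.69% of all genes higher and 2.13% lower. From stiff IPN to stiff col it called 1 basal marker higher and 5 lower, and CD68 rose by 1.72 (adjusted p = 0.0187 in limma), beside 1% and 1.47% of all genes. Without the block 0 of these markers were called.

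DDX58, which encodes the RNA sensor RIG-I, had 90 and 113 normalized counts in soft IPN, 245 and 497 in stiff IPN, 66 and 110 in soft col:rBM and 90 and 144 in stiff col. IFI27 had 15 and 25, 123 and 671, 19 and 16, and 11 and 7 in the same order. In both, the stiff IPN libraries were above all others and replicate 2 was the higher of them. With the trial as a block, DDX58 rose by 1.78 and IFI27 by 3.82 on the log2 scale from soft to stiff IPN (adjusted p = 0.0182 and 0.0317 in limma), as did HERC6, by 1.19 (adjusted p = 0.0363). Without the block the limma adjusted p values of DDX58, IFI27 and HERC6 were 0.491, 0.41 and 0.531. IFITM3 went another way, with 2654 and 3304 in soft IPN, 3069 and 3280 in stiff IPN, 1386 and 1537 in soft col:rBM and 1632 and 1879 in stiff col. In IFITM3 both IPNs lay above both collagen gels, and with the block it fell by 0.86 from stiff IPN to stiff col (adjusted p = 0.0232 in limma, 0.353 without the block).

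The plot of list levels sets these groups side by side. The median centred log2 level of the interferon-stimulated genes was 0.43 and 1.38 in stiff IPN and between -0.48 and -0.14 in the other 6 libraries. For the 9 class I genes it was 0.09 and 0.12 in soft IPN, 0.10 and 0.40 in stiff IPN, -0.15 and -0.52 in soft col:rBM and 0.21 and -0.31 in stiff col. Both lists were highest in stiff IPN replicate 2, but the class I genes were lowest in soft col:rBM replicate 2 and the interferon-stimulated genes in soft col:rBM replicate 1. The highest library was stiff IPN replicate 2 for 75% of the interferon-stimulated genes, 66.7% of the class I genes and 71.4% of the standard proteasome subunits, against 23.4% of all genes tested. Closer to that share were the further class I genes (33.3%), the regulators (30.4%) and the class I-like molecules and natural killer ligands (33.3%). The 1 tested MHC class II gene, HLA-DMA, was also highest in stiff IPN replicate 2.

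**Figure D5:**
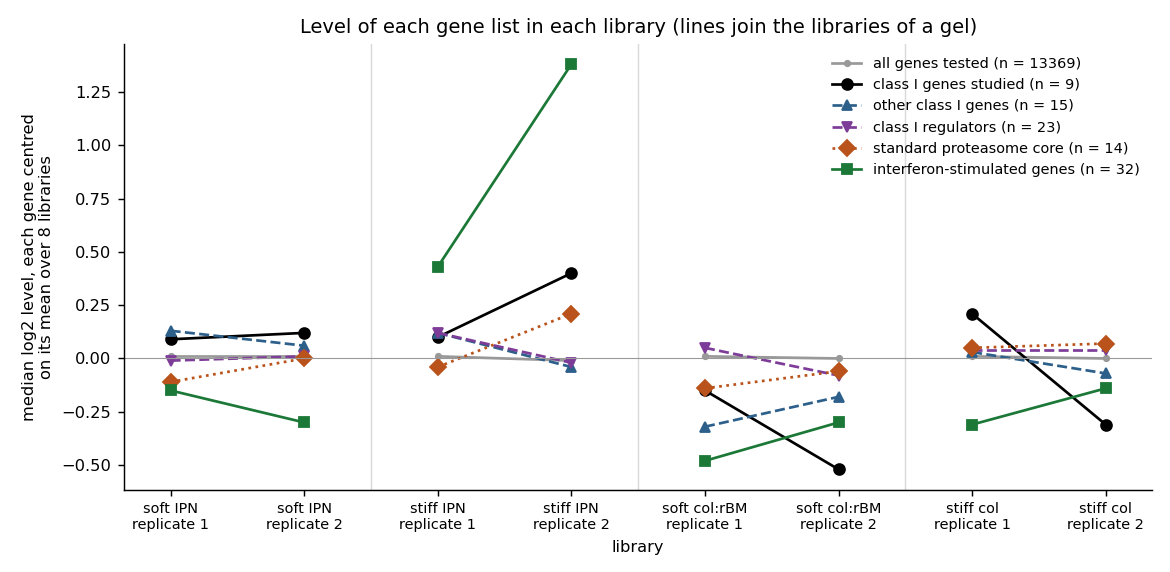
Median log2 level of each gene list in each of the 8 libraries, every gene centred on its mean over the libraries; lines join the libraries of a gel. The interferon-stimulated genes reach 1.38 and the 9 class I genes 0.40 in stiff IPN replicate 2, while all genes tested stay near 0.

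The 14 subunits of the standard proteasome core, which supply most peptides to TAP, had median log2 differences of 0.15 from soft to stiff IPN, -0.08 from stiff IPN to stiff col, 0.16 from soft col:rBM to stiff col and -0.06 from soft IPN to soft col:rBM. Without stiff IPN replicate 2 the first was -0.02 (6 higher, 8 lower) and the second 0.04, and without soft col:rBM replicate 1 the last was 0.03. Limma called 0 of the 14 in each of these with and without the block, with 1, 0, 0 and 0 at an unadjusted p under 0.05 without it (9.31%, 6.27%, 1.05% and 1.42% of all genes) and 3, 1, 1 and 0 with it (24.7%, 18.9%, 3.72% and 4.76%). Between trials it called 4 higher and 0 lower in replicate 2, beside 12.7% and 14.4% of all genes, but 0 without any 1 library of soft col:rBM or stiff col, 1 without one of soft IPN and 2 when no gene was filtered out. PSMA3 had 910 and 883 normalized counts in soft IPN, 1229 and 1663 in stiff IPN, 803 and 1021 in soft col:rBM and 1046 and 1308 in stiff col, and PSMA4 had 1658 and 1965, 2252 and 3083, 1314 and 1919, and 1587 and 2439. The stiff IPN libraries lay above both soft IPN libraries in 5 of the 14 (PSMA1, PSMA2, PSMA3, PSMA4 and PSMA5) and below both in 2 (PSMB4 and PSMB5), beside 20.5% of all genes above and 21.4% below. PSMB6, the counterpart of PSMB9, had 1361 and 1697, 1559 and 1963, 1357 and 1332, and 1592 and 1470 in the same order.

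Class I-like molecules and ligands of natural killer cell receptors formed a list of 14, of which 12 were tested. Their median log2 differences were -0.03 from soft to stiff IPN, 0.14 from stiff IPN to stiff col, -0.03 from soft col:rBM to stiff col and -0.09 from soft IPN to soft col:rBM, and from -0.16 to 0.03, 0.01 to 0.34, -0.03 to 0.13 and -0.13 to 0.09 with single libraries left out. Limma without the block called 0 in each, with 2, 2, 0 and 0 at an unadjusted p under 0.05, where all genes had 9.31%, 6.27%, 1.05% and 1.42%, and with 3, 6, 0 and 0 once the block was added (24.7%, 18.9%, 3.72% and 4.76%). With the block it called 1, PROCR, the endothelial protein C receptor, which fell by 0.68 from soft to stiff IPN (adjusted p = 0.0376 in limma, 0.593 without the block). In that blocked fit 1.69% of all genes were called higher and 2.13% lower. PROCR had 3160 and 2075 in soft IPN, 2084 and 1223 in stiff IPN, 2769 and 1767 in soft col:rBM and 2619 and 1543 in stiff col, so that the gels overlapped and replicate 2 was the lower in each. AZGP1 had 91 and 79, 123 and 253, 68 and 61, and 63 and 39 in the same order, with stiff IPN above the rest. MR1, which presents vitamin metabolites, had 938 to 1945 normalized counts and RAET1G had 86 to 256.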

How the data were processed

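RNA was isolated with TRIzol and a column kit, and libraries were made with the TruSeq RNA v2 kit, which does not mark strand. Per the paper and the submitters' processing notes, reads were trimmed with Trim Galore 0.3.3, aligned to hg19 (the paper names Bowtie2, the notes TopHat2 2.0.13), cleared of unmapped, low quality and multimapped reads with SAMtools 1.1 and counted with HTSeq. The authors then divided the count of each gene by 1 factor per library (DESeq2, R 3.2.0) and rounded it, and this deposited signal is called normalized counts here. The gene annotation and strand setting are not given in the sources used here. Heavy chain genes differ greatly between people, and reads were aligned to a single reference sequence.

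Library sums ran from 14306848 to 17999273 normalized counts, and the factors, read from the steps between low values, give 13059651 to 18583116 counts on genes before that division. The paper gives paired-end reads and a greater depth of filtered reads, and whether a count is a read or a read pair is not given. The test was limma 3.58.1 in R 4.3.3 (with statmod 1.5.0) on log2 of the normalized count with a pseudocount of 1, with a mean for each gel, a variance trend and robust moderation, for genes with at least 10 in at least 2 libraries, and p values were adjusted by Benjamini-Hochberg over the 13369 genes tested. edgeR was planned for unscaled counts and not run. Comparisons were the 4 between gels, the difference between the soft to stiff steps of the collagen gels and of the IPNs, any difference over the 4 gels, and replicate 2 against replicate 1. The fit was tested on simulated data. Replicate numbers were taken to pair the libraries across gels, which the labels do not state. Over the 6 pairs of gels, differences between replicates correlated across genes with r of 0.28 to 0.82. The pairs with stiff IPN had the lowest r (0.28, 0.39 and 0.4), and the others had 0.65 to 0.82. The paper speaks of independent trials, so fits with the trial as a block are given. No replicate pair was a repeat deposit (121 to 172 of 13369 values identical, compared exactly).

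The 9 genes and the lists were chosen with earlier results of these data known, and the lists were written from general knowledge. From each other list at most 4 genes are named, those with the lowest p over the 4 gels with the block, plus the further class I genes and the 10 genes most alike the mean profile. Genes named because they are at 0, lead a marker list or make up a count of 5 or fewer were chosen after their values were seen. A few genes that this rule or a marker list would name are not reported here. Alternatives were the block, the libraries of the compared gels alone, TMM and upper-quartile rescaling, pseudocounts of 0.5 and 5, no filter, at least 10 in every library, and leaving out each library. Python 3.11.15 (numpy 2.4.6, pandas 2.3.3, matplotlib 3.10.9) was used for positions (GENCODE 44), sequences and plots.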

Additional observations from a re-analysis of the deposited data

How the results depend on the processing

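Limma called 0 of the 9 genes between gels under each alternative run. In the main fit, without the block, at most 2 of them had an unadjusted p under 0.05 in a comparison between gels. Counts of all genes called depended on the trial as a block: with it, 511 were called from soft to stiff IPN, 330 from stiff IPN to stiff col, 3 from soft IPN to soft col:rBM, 2 for the difference between the soft to stiff steps and 211 over the 4 gels, where 0 were called without it. The block changed no other call among the 9 genes. With only the libraries of the gels compared, 1 gene was called from soft to stiff IPN. From stiff IPN to stiff col 4 were called with a pseudocount of 5 and 0 to 5 when a library was left out. The cause of these differences was not tested.

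Leaving out each library in turn gave median log2 differences of the 9 genes from -0.04 to 0.31 from soft to stiff IPN, from -0.55 to -0.12 from stiff IPN to stiff col, from 0.00 to 0.50 from soft col:rBM to stiff col and from -0.61 to -0.16 from soft IPN to soft col:rBM. Between trials it gave 0 to 5 of the 9 genes called and 1208 to 5845 of all genes. A gel left with 1 library is assumed to vary like the other gels, and it adds nothing to the difference between trials. In the 4 comparisons, 5, 6, 4 and 6 of the 9 genes kept the sign of their estimate under all 16 alternatives. Rescaling moved the median of all genes by at most 0.02. Tests of unscaled counts with edgeR and DESeq2 were not run, as these counts could be had back only approximately from rounded values. Depth limits PSMB9 most, at 10 to 27 normalized counts.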
